A study of Mus musculus with 3 samples.

Results

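H3K36me3 was measured in 800 peaks that lie in long non-coding RNA (lncRNA) genes of mouse regulatory T cells (Tregs) and outside protein-coding genes. A peak was taken when its midpoint fell, on an autosome, in a gene that the GENCODE M21 annotation types as lincRNA, antisense, processed_transcript or bidirectional_promoter_lncRNA, and neither in a protein_coding gene nor within 10 kb downstream of one. These 800 peaks are 0.662% of the 120910 peaks in the table, and 14.9% of the 5387 autosomal peaks whose midpoint is in any gene of the 4 types. They fell in 178 lncRNA genes, 1.96% of the 9065 annotated on autosomes, whereas 9784 of 20807 autosomal coding genes (47.0%) held a peak.

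CD3+CD4+Foxp3-YFP+ Tregs were sorted at steady state from spleen and from large intestine (LI) of adult C57BL/6 mice. Both tissues came from Foxp3Cre-YFP animals, labelled Foxp3-YFP as the genotype, in which a Cre-YFP fusion is made by cells that express Foxp3. Cells of 7 male and 7 female mice were pooled, and 1 H3K36me3 library was made per tissue, so the table holds no replicate and no comparison below has a test. An input library was also made and was not analysed here.

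SETD2 places H3K36me3 while it travels with elongating RNA polymerase II, and the mark therefore covers the bodies of transcribed genes. An lncRNA gene is transcribed and often spliced like a coding gene, but its RNA is not annotated as coding. Some lncRNA genes carry microRNAs (miRNAs) or small nucleolar RNAs (snoRNAs) inside their transcripts, some act on a neighbouring gene, and many have no known function.

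The miRNAs inside these genes are shown first, since the hosts of several differed between the tissues below. Each is the arm usually taken as the main product, from RefSeq on GRCm38.p6, 5′ to 3′, with the seed (bases 2 to 8) in capitals. Mir17hg carries miR-17-5p and miR-20a-5p with a shared seed, miR-18a-5p with a seed that differs from it, miR-19a-3p and miR-19b-3p with another shared seed, and miR-92a-3p. Dleu2 carries miR-16-5p, A330023F24Rik carries miR-29b-3p and miR-29c-3p, Lncppara carries let-7b-5p and let-7c-5p, and 6720427I07Rik carries let-7d-5p.
miR-17-5p: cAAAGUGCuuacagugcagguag
miR-20a-5p: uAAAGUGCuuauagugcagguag
miR-18a-5p: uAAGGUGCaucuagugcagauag
miR-19a-3p: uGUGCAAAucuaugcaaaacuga
miR-19b-3p: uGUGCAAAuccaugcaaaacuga
miR-92a-3p: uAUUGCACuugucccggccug
miR-16-5p: uAGCAGCAcguaaauauuggcg
miR-29b-3p: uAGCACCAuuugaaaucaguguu
miR-29c-3p: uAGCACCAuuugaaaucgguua
let-7b-5p: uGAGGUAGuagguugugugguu
let-7c-5p: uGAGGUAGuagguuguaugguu
let-7d-5p: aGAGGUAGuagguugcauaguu

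Genomic sequence of 7 member peaks is given next, read on the gene's strand from GRCm38, the assembly of mm10. The stretch of Mir17hg, chr14:115043671-115043946 on the plus strand, runs from the first to the last base of the Mir17 and Mir18 hairpins inside the strongest peak of that gene, and capitals mark the 4 mature arms.
Mir17hg: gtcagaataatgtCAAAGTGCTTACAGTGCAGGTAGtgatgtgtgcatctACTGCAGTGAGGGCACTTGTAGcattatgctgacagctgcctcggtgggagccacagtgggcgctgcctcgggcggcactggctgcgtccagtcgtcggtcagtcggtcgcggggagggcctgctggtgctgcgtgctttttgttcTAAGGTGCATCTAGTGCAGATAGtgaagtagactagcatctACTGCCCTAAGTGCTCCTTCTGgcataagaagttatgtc

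The other 6 stretches are the central 160 bases of the strongest peak in the 6 genes, of those that reached 60 RPKM summed over the 2 libraries, whose intervals lay farthest from 0 on either side, and capitals mark CG dinucleotides. Of these, 2 were from genes with more signal in spleen, Gm2682 (chr15:60159133-60159292, minus strand) and A330040F15Rik (chr19:12533718-12533877, minus strand).
Gm2682: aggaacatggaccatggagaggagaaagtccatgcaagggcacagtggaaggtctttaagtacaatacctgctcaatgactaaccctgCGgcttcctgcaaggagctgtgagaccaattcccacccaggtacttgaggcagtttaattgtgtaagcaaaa
A330040F15Rik: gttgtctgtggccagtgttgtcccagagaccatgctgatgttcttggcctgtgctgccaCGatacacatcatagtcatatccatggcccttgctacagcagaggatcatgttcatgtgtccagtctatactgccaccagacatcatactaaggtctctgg

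The remaining 4 were from genes with more signal in LI, Gm10874 (chr5:138374080-138374239, plus strand), 2210408F21Rik (chr6:31337062-31337221, plus strand), Ptprv (chr1:135122556-135122715, minus strand) and Gm14005 (chr2:128400176-128400335, minus strand). The GC content of the Gm10874 stretch was 66.9%, with 12 CG dinucleotides, against 48.1% to 54.4% and 0 to 2 in the other 5.
Gm10874: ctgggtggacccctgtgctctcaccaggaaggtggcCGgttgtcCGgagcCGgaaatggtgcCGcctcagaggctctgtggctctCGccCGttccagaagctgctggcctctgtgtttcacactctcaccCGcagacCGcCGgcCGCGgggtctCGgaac
2210408F21Rik: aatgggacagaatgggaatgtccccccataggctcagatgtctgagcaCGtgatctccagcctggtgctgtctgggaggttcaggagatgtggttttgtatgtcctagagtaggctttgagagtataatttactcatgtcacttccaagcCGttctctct
Ptprv: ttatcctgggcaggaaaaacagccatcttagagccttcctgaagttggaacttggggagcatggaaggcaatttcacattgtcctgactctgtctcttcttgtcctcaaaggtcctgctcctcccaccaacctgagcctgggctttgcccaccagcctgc
Gm14005: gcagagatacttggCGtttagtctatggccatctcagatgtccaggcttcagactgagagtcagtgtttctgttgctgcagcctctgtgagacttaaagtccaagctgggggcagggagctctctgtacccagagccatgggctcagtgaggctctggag

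The lncRNA label was checked against RefSeq. By symbol, 109 of the 178 genes were lncRNA in RefSeq, 10 were protein-coding, 58 had no entry and Ptprv was a transcribed pseudogene. By position, 124 of the 800 peaks lay inside a gene that RefSeq calls protein-coding, most of them in Trerf1 (38 peaks) and Zswim6 (34 peaks). GENCODE M21 types the body that holds those peaks as processed_transcript, so these 2 are coding loci by RefSeq and lncRNA genes by GENCODE M21. The counts past 2-fold, the median ratio and the correlation with coding neighbours are also given without these loci.

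The sorted population carried peaks in all 8 T cell markers and all 6 Treg markers fixed for this check. Summed signal over the Treg list (Foxp3, Il2ra, Ctla4, Ikzf2, Ikzf4 and Tnfrsf18) was 1807 RPKM in spleen and 1473 in LI. Markers of other cells had less signal in sum and fewer peaks. Of B cell genes, 3 had a peak (60.2 and 51.8 RPKM in sum), with Ms4a1 and Ebf1 without one. A peak was also held by 1 of 6 myeloid genes (14.7 and 15.8), 1 of 2 CD8 genes (21.1 and 9.16) and 3 of 6 epithelial genes (55.1 and 90.9). Cdh1, Krt8 and Krt20 had none. These sums grow with the number of peaks: 158 for the Treg list, 6 for B cell, 1 for myeloid, 2 for CD8 and 10 for epithelial genes. They do not show that single peaks in markers of other cells were lower. The part of such cells in the differences below was not tested. In these bulk samples, fewer marked cells and less mark per cell cannot be told apart.

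Each value is a peak's mean coverage in RPKM, reads per kilobase scaled to the number of mapped reads, as deposited. The smallest step between values corresponds to about 29.6 M mapped reads for spleen and 38.1 M for LI. LI values were multiplied by 0.969, which sets the sum over all peaks equal to that of spleen, and all LI values below are on that scale. A gene's level is the sum over its member peaks, and its ratio is log2(LI + 0.5) minus log2(spleen + 0.5), so a positive ratio is higher in LI. The interval beside a ratio is an approximate 95% counting interval that takes 200 bp of coverage as 1 read. It covers counting error only, not the spread between animals or libraries.

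Member peaks were about as high as peaks in coding genes but shorter. The median peak had 10.005 RPKM in spleen (interquartile range 7.23 to 12.7) and 9.54 in LI (6.80 to 12.5). Peaks in coding genes had medians of 10.4 and 10.3, and the 725 peaks elsewhere between genes had 9.26 and 8.95. The median length was 352 bp against 465 bp in coding genes, and 115 member peaks (14.4%) reached 1 kb, against 24.1% of peaks in coding genes. Single member peaks also spread more between the tissues: the SD of their log2 ratios was 1.01, against 0.79 in coding genes. Other peaks outside coding genes were about as short. The peaks elsewhere between genes had a median length of 320 bp, 12.7% of 1 kb or more and a larger SD of 1.12. Those within 10 kb downstream of coding genes had 370 bp, 13.1% and an SD of 0.86, between coding genes and members. Within the members the SD was 1.06 for peaks under 1 kb and 0.56 for those of 1 kb or more, so the spread was larger in short peaks.

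A few long genes held most of the peaks. Of the 178 genes, 71 had a single member peak and the median gene had 2, while 22 genes with at least 10 peaks held 457 of the 800. Lncpint had 62, Pvt1 49, 2610035D17Rik 40, Trerf1 38 and Zswim6 34. Of all 800 peaks, 82 lay in more than 1 member gene, and were counted for each. Ino80dos and Gm20342 shared all 9 of their peaks, and Gm26561 and Gm26510 all 11 of theirs.

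Along the genes, member peaks were spread more evenly than peaks in coding genes. The rule leaves out peaks in coding genes and within 10 kb past their ends. It therefore partly sets where along a gene a member peak can lie. Trerf1 and Zswim6, coding by RefSeq, hold 38 and 34 of the peaks, and the shares were not computed without such loci. With the gene body cut into 5 equal parts, the part nearest the start held 16.2% of the 883 pairs of a peak and a gene, the others 20.95%, 19.9%, 21.6% and 21.3% in order towards the end. In coding genes the same shares climbed from 12.1% through 17.6%, 20.7% and 23.2% to 26.5%. In the 126 member genes that touch no coding gene the share was 22.4% nearest the end and 14.6% nearest the start, again a flatter gradient than in coding genes. A member peak overlapped an exon of its gene in 284 of 883 pairs (32.2%), against 41.9% in coding genes. Those over exons had a median of 10.4 RPKM in spleen and 10.3 in LI, the others 9.77 and 9.45. Peaks over exons were also longer, with a median of 458.5 bp against 319 bp. Length was held equal neither here nor in the comparison with coding genes.

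The 10 kb limit cut through a continuous range of positions. Just inside it, the 48 member peaks 10 to 15 kb past a coding end had medians of 9.34 RPKM in spleen and 11.5 in LI. Just outside, the 89 lncRNA-gene peaks 5 to 10 kb past a coding end had 9.84 and 9.77. In all, 278 member peaks lay 10 to 50 kb past a coding end and 84 within 5 kb before a coding start.

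Between the tissues, the lncRNA genes as a set were level, with long tails in both directions. Of the 178 genes, 123 reached 20 RPKM over both libraries and 55 did not. Among the 123, 55 were higher in LI and 68 in spleen. The median ratio was -0.04 (interquartile range -0.30 to 0.33), against 0.01 (-0.20 to 0.24) over all 10619 autosomal genes with that signal. A ratio over 1, meaning more than 2-fold higher in LI, was found in 13 of 123 genes (10.6%), against 3.39% of all genes. A ratio under -1 was found in 8 (6.5%), against 2.0% of all genes.

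The median member gene had 64.4 RPKM over both libraries and the median of all genes 142. In the band from 20 to 60 RPKM, 12.3% of 57 member genes and 7.03% of all genes passed 2-fold towards LI, and 5.26% and 4.49% towards spleen. At 60 RPKM or more it was 9.09% of 66 member genes against 2.23% towards LI, and 7.58% against 1.20% towards spleen. The limits are on the sum over both libraries, for members and for all genes alike. A gene can therefore pass them mainly through the tissue in which it is higher. Within each band the members were still measured less precisely. The median standard error from counting was 0.43 against 0.35 in the lower band and 0.19 against 0.14 in the upper. In the upper band the median member gene had 148 RPKM and the median of all genes 213. By the counting interval the members were close to the background: it lay above 0 in 24 genes (19.5%, all genes 18.3%) and below 0 in 15 (12.2%, all genes 15.3%). Without the 22 genes that have peaks in RefSeq coding genes, 10 of 101 genes were past 2-fold in LI and 7 in spleen, with a median of -0.06.

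**Figure D1:**
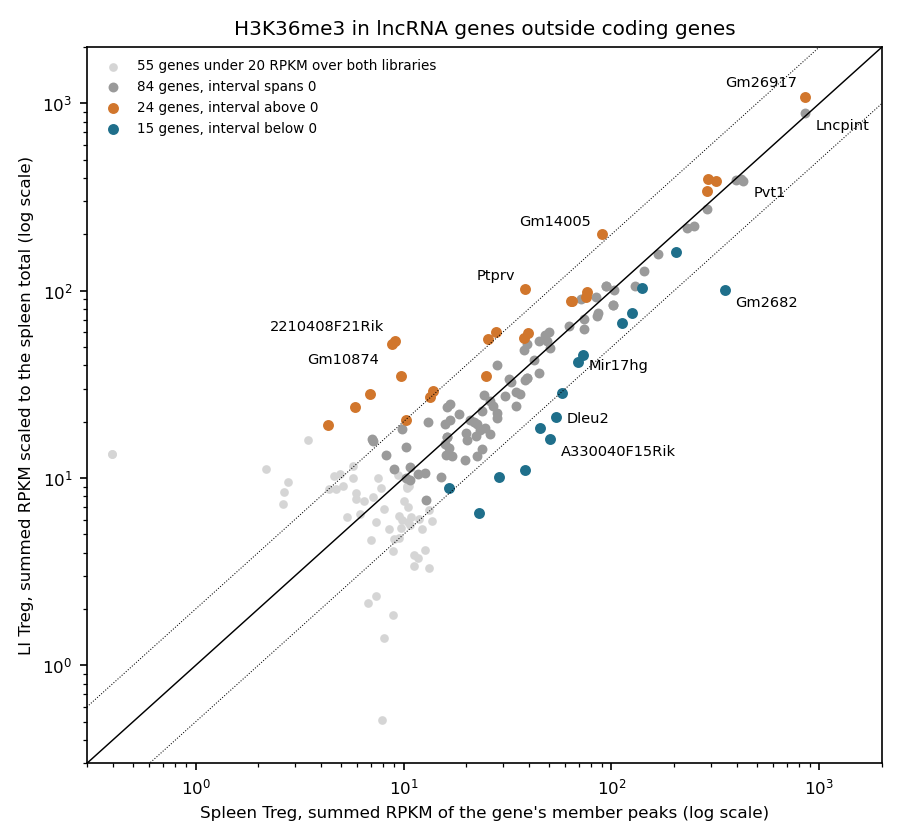
Summed H3K36me3 signal (RPKM, log axes) of each of the 178 lncRNA genes in spleen (x) and LI (y, scaled). The solid line marks equal signal and the dotted lines 2-fold, and most genes lie along the solid line, while Gm2682 lies far below it and Gm14005, Ptprv, Gm10874 and 2210408F21Rik lie above the upper dotted line.

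**Figure D2:**
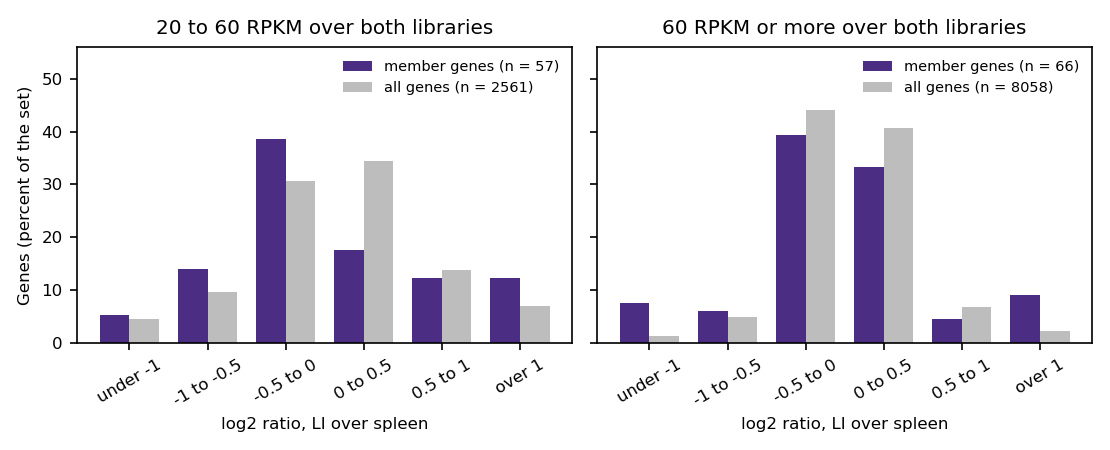
Percent of genes in each class of log2 ratio (LI over spleen), for the lncRNA genes and for all autosomal genes with the same range of signal. At 60 RPKM or more, 9.09% of 66 lncRNA genes are over 1 and 7.58% under -1, against 2.23% and 1.20% of 8058 genes.

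The 2-fold differences lay mostly in lincRNA and processed_transcript genes, the largest types, and in every class of position. The 67 tested lincRNA genes had a median ratio of -0.04, with 8 past 2-fold in LI and 5 in spleen. The 34 processed_transcript genes had -0.03, with 5 and 2, the 16 antisense genes -0.03, with 0 and 1, and the 6 bidirectional_promoter_lncRNA genes -0.21, with 0 and 0. By position, genes that overlap a coding gene body elsewhere had a median of -0.15 (37 genes, 4 and 3 past 2-fold), and those with a start within 5 kb of an opposite-strand coding start had -0.13 (20 genes, 1 and 1). Other genes within 50 kb of a coding gene had -0.03 (51 genes, 6 and 3), and those farther away 0.03 (15 genes, 2 and 1).

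Of the 8 genes with the highest signal, 4 had an interval that spans 0 and 4 had one above 0. Over all genes with at least 60 RPKM, 19.4% lay above 0 and 17.3% below. The 4 above 0 include Gm26917 and Gm42418, which lie over a ribosomal repeat, and Zswim6, which RefSeq calls coding. They show no direction of strong lncRNA genes as a set. Lncpint, a p53-induced lncRNA (chr6:31082565-31220488, minus strand), summed to 854 RPKM in spleen and 883 in LI over 62 peaks, a ratio of 0.05 (-0.04 to 0.13). Its single peaks ran from 4.51 to 25.2 RPKM in spleen and from 3.76 to 31.3 in LI, and 39 of 62 were higher in LI. Pvt1, the lncRNA next to Myc (chr15:62037986-62378096, plus strand), summed to 428 and 387 RPKM over 49 peaks, a ratio of -0.15 (-0.34 to 0.05), with 20 of 49 peaks higher in LI. 2610035D17Rik on chromosome 11 summed to 420 and 393 RPKM (-0.10, -0.28 to 0.09). For these 3 genes the interval spans 0.

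Gm26848 on chromosome 17 was 292 RPKM in spleen and 392 in LI (ratio 0.42, 0.23 to 0.62), with 16 of 21 peaks higher in LI, but 0.06 by its strongest peak. The loci that RefSeq calls coding, Trerf1 and Zswim6, had ratios of -0.03 (-0.21 to 0.15) and 0.25 (0.05 to 0.44). Gm26917 (2 peaks) and Gm42418 (1 peak), neighbours on chromosome 17, were far above the rest per peak: 419 and 438 RPKM in spleen and 572 and 509 in LI for Gm26917, and 317 and 386 for Gm42418. These 2 genes lie over a copy of the ribosomal RNA repeat, whose near-identical copies share reads, so their levels are uncertain. Their GC content was 69.6% and 70.4%, and their ratios of 0.33 and 0.28 became 0.04 and -0.0072 when the ratio was corrected for GC content.

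Towards LI, among genes that reached 60 RPKM summed over the 2 libraries, the intervals of Gm10874, 2210408F21Rik, Ptprv and Gm14005 lay farthest above 0. Ptprv (chr1:135108497-135132594, minus strand), a receptor-type tyrosine phosphatase gene, summed to 38.5 RPKM in spleen and 103 in LI, a ratio of 1.41 (1.09 to 1.72). Its 6 peaks were 6.23, 10.05, 5.14, 5.97, 5.2 and 5.89 RPKM in spleen, in order from the start, and 12.6, 26.1, 15.7, 16.2, 11.8 and 20.3 in LI. Every one was higher in LI, and the lowest LI peak was above the highest spleen peak. The longest ran over 8181 bp of the gene body. Ptpn7, the haematopoietic phosphatase gene 0.11 kb away, went from 25.2 to 22.2 RPKM, a ratio of -0.18 (-0.31 to -0.06).

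Gm14005 (chr2:128178319-128502765, minus strand), also known as Morrbid, is an lncRNA described as a repressor of its neighbour Bcl2l11, which encodes the pro-apoptotic protein BIM. It summed to 89.7 RPKM in spleen and 200.4 in LI, a ratio of 1.15 (0.80 to 1.51), or 0.48 by its strongest peak. Its 18 peaks had a median of 5.33 RPKM in spleen (0.58 to 10.2) and 10.9 in LI (4.33 to 16.2). In LI 17 of the 18 were higher, 10 of them more than 2-fold, and the exception was the peak nearest the start, with 9.57 and 4.33 RPKM. All 18 lay between 86.3 and 186 kb from the start of the 324 kb gene body, and none overlapped one of its annotated exons. Bcl2l11 itself, 15.8 kb away, differed in the other direction: its 19 peaks summed to 241 RPKM in spleen and 179 in LI (-0.42, -0.63 to -0.21), with 3 of 19 higher in LI.

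Gm10874 (chr5:138363719-138388287, plus strand) had 4 peaks with 3.21, 0.36, 1.86 and 3.37 RPKM in spleen and 9.54, 13.5, 11.7 and 17.5 in LI. The lowest LI peak was thus above the highest spleen peak, and the ratio of the sums was 2.50 (1.46 to 3.55). 2210408F21Rik (chr6:31220351-31337404, plus strand) starts head to head with Lncpint. Its 5 peaks, all at least 65.0 kb into the gene, had 1.05 to 2.98 RPKM in spleen and 7.26 to 14 in LI, a ratio of 2.50 (1.34 to 3.65), while Lncpint on the other side was at 0.05. Both passed the 60 RPKM limit mainly through LI, the tissue in which they were higher. Spleen and LI sums were 8.79 and 52.2 RPKM for Gm10874 and 9.09 and 53.6 for 2210408F21Rik. Both genes rest on little spleen coverage. With 200 bp of coverage taken as 1 read, it comes to about 9.7 reads for Gm10874 and 6.5 for 2210408F21Rik. Their ratios are thus the least precise of the 4. The nearest coding genes with at least 20 RPKM, Zfp157 and Mkln1, had ratios of -0.25 and -0.32.

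Past 2-fold with lower precision were Gm35363 on chromosome 7 (27.9 and 59.98 RPKM, 1.09, 0.40 to 1.78) and A330023F24Rik on chromosome 1 (25.6 and 55.0 RPKM, 1.09, 0.47 to 1.71), each with all 5 peaks higher in LI. AU020206 on chromosome 7 differed less and was measured better: 63.8 and 87.8 RPKM, a ratio of 0.46 (0.24 to 0.67), with all 4 peaks higher in LI. The nearest coding gene with signal, Akap13, had a ratio of -0.38 (-0.48 to -0.29).

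Towards spleen, Gm2682 (chr15:60120540-60187408, minus strand) stood apart by its size and by the agreement of its peaks. It summed to 352 RPKM in spleen and 100 in LI, a ratio of -1.80 (-2.04 to -1.56). Its 29 peaks had a median of 11.6 RPKM in spleen (7.92 to 17.1) and 3.07 in LI (0.99 to 8.48). All 29 were lower in LI, 27 of them by more than 2-fold, with single ratios between -3.21 and -0.40. They covered the gene from 7.06 to 60.2 kb behind its start. The nearest coding gene with signal, Trib1, is 463 kb away and had a ratio of 0.16 (-0.14 to 0.46). Mean GC content over the peaks was 41.9%, and the ratio was -1.67 after correction for GC content.

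**Figure D3:**
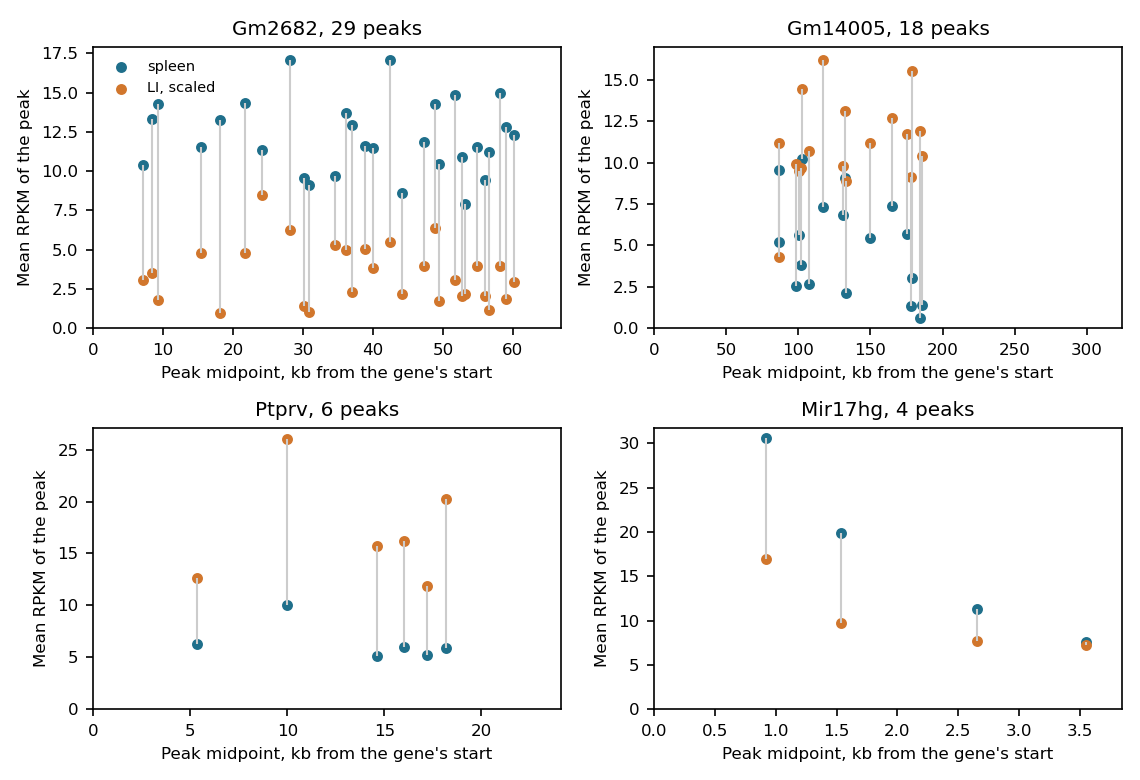
Mean RPKM of each member peak in spleen and in LI (scaled), against the distance of its midpoint from the gene's start in kb, for 4 genes over their full lengths. All 29 peaks of Gm2682 are lower in LI, all 6 of Ptprv and 17 of 18 of Gm14005 are higher, and the 4 peaks of Mir17hg lie closer together towards the end of the gene.

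A330040F15Rik on chromosome 19 had 5 peaks between 5.50 and 17.2 RPKM in spleen and between 1.45 and 5.87 in LI, a ratio of -1.63 (-2.41 to -0.84). All 5 were over 2-fold lower in LI and lay within 61.6 to 67.5 kb of its start. Gm31718 on chromosome 8 summed to 45.1 and 18.5 RPKM (-1.26, -2.01 to -0.51) with 4 of 4 peaks higher in spleen, and Gm39323 on chromosome 9 to 57.9 and 28.4 (-1.01, -1.66 to -0.36) with 5 of 5. Gm39323 was at the 2-fold limit: its ratio was -0.999 with median-of-ratios scaling, -0.87 weighted by length and -0.37 by its strongest peak. By its strongest peak Gm31718 was at -0.70. Gm39323 starts 2.33 kb from Thy1, which encodes a surface protein of T cells and had a ratio of 0.18 (-0.27 to 0.63). Smaller differences in the same direction were those of 5031425E22Rik, which diverges from the start of the methyltransferase-family gene Kmt2e (126 and 76.1 RPKM, -0.72, -1.09 to -0.36), and of 2310001H17Rik (113 and 67.2 RPKM, -0.74, -1.20 to -0.29), with 9 of 11 peaks higher in spleen in each.

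Among the listed hosts of miRNAs that passed the signal filter, Mir17hg and Dleu2 were higher in spleen. Of 18 symbols on the miRNA host list, 13 are autosomal genes of the 4 types and 4 held a member peak. The filter was passed by 3: Mir17hg, Dleu2 and Lncpint, of which 2 had an interval below 0 and none above. Over all autosomal genes with that signal, 15.3% had an interval below 0 and 18.3% above. Lncpint is on the list, but the hairpins named for it below lie past its annotated end. The tested hosts are too few to show a direction of miRNA hosts as a set. By position, 17 RefSeq hairpins lay inside 8 member genes on the gene's own strand, and member peaks overlapped 8 of them, 6 in Mir17hg, Mirlet7d in 6720427I07Rik and Mir101a in E130102H24Rik.

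Mir17hg (chr14:115042879-115046727, plus strand), the host of the miR-17 cluster that promotes proliferation of lymphocytes, had 4 peaks. From the start they had 30.6, 19.9, 11.3 and 7.58 RPKM in spleen and 16.96, 9.75, 7.64 and 7.22 in LI. All 4 were higher in spleen, and both tissues fell from the start to the end of the gene. The sums were 69.4 and 41.6 RPKM, a ratio of -0.73 (-1.15 to -0.31). The 362 bp peak nearest the start holds the Mir17 and Mir18 hairpins printed above, and the next peak reaches those of Mir19a, Mir20a, Mir19b-1 and Mir92-1.

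Dleu2 (chr14:61602839-61682373, minus strand), a gene lost in some lymphoid leukaemias, had 5 peaks with 9.08 to 12.3 RPKM in spleen and 0.03 to 7.83 in LI, a ratio of -1.33 (-2.13 to -0.54). The peak 8.44 kb behind the start was nearly level, with 9.08 and 7.83 RPKM, while the 4 peaks at 51.3 to 57.7 kb were all more than 2-fold lower in LI. Its Mir16-1 hairpin lay 664 bases from the nearest of these, which had 10.7 RPKM in spleen and 0.03 in LI over 201 bp. Spryd7, the nearest coding gene with signal, had a ratio of 0.43 (-0.49 to 1.35).

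The other hosts took either side. Lncppara, which holds Mirlet7c-2 and Mirlet7b at its end, summed to 231 and 216 RPKM over 19 peaks (-0.10, -0.30 to 0.11). 6720427I07Rik, which holds Mirlet7d, Mirlet7f-1 and Mirlet7a-1, had 13.4 and 27.2 RPKM over 3 peaks (0.99, 0.08 to 1.91), but the peak over Mirlet7d itself had 7.52 and 6.80. A330023F24Rik, higher in LI as given above, carries Mir29b-2 and Mir29c, and its nearest peak was 10.8 kb before the first of them. In Lncpint, listed as a host, Mir29b-1 and Mir29a lie 19.5 and 19.8 kb past the annotated end. E130102H24Rik, with Mir101a under its 1 peak, had 16.6 and 8.90 RPKM (-0.87, -1.73 to -0.01). Lncppara, 6720427I07Rik and E130102H24Rik were named for their hairpins after their values were seen.

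Of 21 snoRNA host symbols, 5 held a member peak and 3 passed the filter, and the intervals of all 3 span 0. Snhg1 had 24.8 and 18.5 RPKM (-0.41, -0.82 to 0.01), Snhg17 28.1 and 22.3 (-0.33, -0.74 to 0.09), and Snhg15 8.27 and 13.3 (0.66, -0.41 to 1.73).

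Of 20 lncRNA symbols known in lymphocytes or at immune genes, 8 held a member peak and 7 passed the filter. Gm2682, Gm14005, Lncpint and Pvt1 are described above, and the list was drawn up with results for Gm2682 known. Neat1, the scaffold RNA of nuclear paraspeckles, had 75.3 and 92.7 RPKM over 7 peaks (0.30, 0.02 to 0.58), with 5 of 7 higher in LI. Malat1, an abundant RNA of nuclear speckles that lies next to Neat1, had 24.95 and 35.03 RPKM (0.48, 0.11 to 0.85). The 6918 bp peak over most of Malat1 was level, with 17.97 and 18.35 RPKM, and the difference came from the 459 bp peak nearer the start, with 6.98 and 16.7. Weighted by length, the ratio of Malat1 was 0.04. AW112010, an interferon-inducible transcript, had 10.2 and 9.96 RPKM in 1 peak (-0.04, -0.79 to 0.71).

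Of 38 symbols with general functions, 6 held a member peak and 4 passed the filter. 1810026B05Rik, also known as Chaserr, a repressor of the neighbouring remodeller gene Chd2, had 168 and 158 RPKM over 14 peaks, 11 of them shared with another member gene (-0.09, -0.32 to 0.14). The ratio turned to 0.25 when corrected for GC content. Chd2 had a ratio of -0.14 (-0.25 to -0.04). Tug1 had 38.1 and 48.0 RPKM (0.33, -0.20 to 0.86). Airn, the antisense RNA of the imprinted gene Igf2r, had 9.01 and 11.1 RPKM in 1 peak (0.29, -0.72 to 1.30), and Igf2r a ratio of 0.08. The fourth, Gm26917, is described with the ribosomal repeat above.

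**Figure D4:**
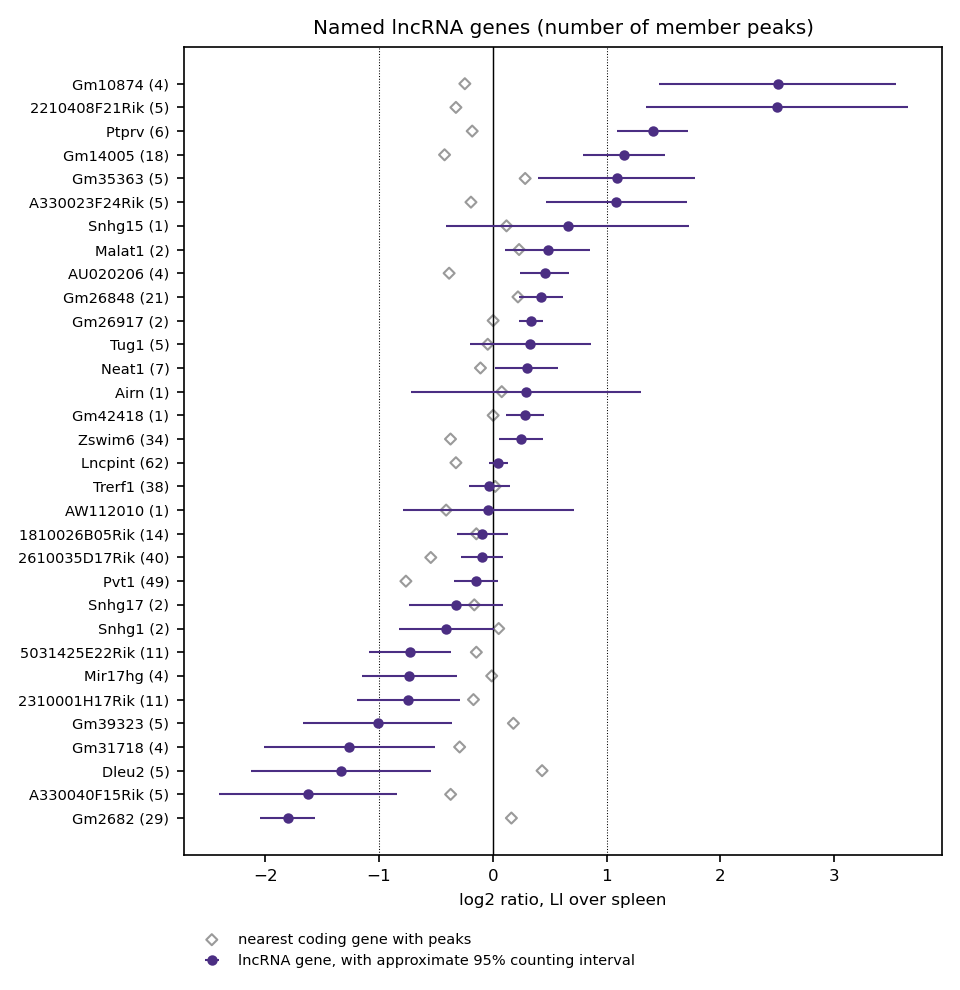
log2 ratio (LI over spleen) of the 32 lncRNA genes chosen by rule, with approximate 95% counting intervals, and of the nearest coding gene with peaks (open diamonds). Ratios run from -1.80 for Gm2682 to 2.50 for Gm10874, and each gene past 2-fold has a coding neighbour between -0.42 and 0.43.

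The other genes past 2-fold had 20 to 60 RPKM. In LI these were C030034L19Rik on chromosome 3 (9.77 and 35.2 RPKM, 1.80, 0.90 to 2.69), Gm11454 near Mybl2 (6.92 and 28.1 RPKM, 1.95), A430073D23Rik (5.85 and 23.9), Gm48236 (4.33 and 19.1), Gm16201 (13.9 and 29.2), Gm5165 (7.09 and 16.2) and Spata5l1 (7.14 and 15.7). The intervals of Gm5165 and Spata5l1 span 0, and both are coding in RefSeq. Both peaks of A430073D23Rik, and both of D930016D06Rik below, also lie in RefSeq coding genes. In spleen they were Gm11131 (38.4 and 11.0 RPKM, -1.76), A630091E08Rik (28.9 and 10.2, -1.46) and D930016D06Rik (23.0 and 6.5, -1.75). Gm11131 overlaps H2-Q4, a class I histocompatibility gene with near-identical paralogues, so its level is uncertain. These 10 genes were named because the 2-fold limit selects them, outside the rule for named genes. Several, such as Gm48236 and D930016D06Rik, passed the 20 RPKM limit mainly through the tissue in which they were higher.

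Ratios of lncRNA genes were set beside those of their nearest coding gene with at least 20 RPKM, as a description. Over the 123 genes, which have 108 different coding neighbours at a median distance of 7.53 kb, Pearson's r was 0.17 and Spearman's rho 0.21, and 79 of 123 pairs (64.2%) had the same sign. In the 66 genes that reached 60 RPKM r was -0.07, rho was 0.03 and 59.1% had the same sign. Among the 101 genes without peaks in RefSeq coding genes r was 0.16, rho 0.18 and the share 63.4%. The points share both libraries, their depth and, within a locus, base composition. For the 32 genes that overlap their neighbour, r was 0.62 and rho 0.37. For the 60 within 50 kb r was 0.08 and rho 0.26, and for the 31 farther away r was 0.01 and rho 0.04.

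Among overlapping genes, a pair of loci stood at the upper end on both axes. Gm48236 (2.02, 0.52 to 3.53) overlaps Ahr, the aryl hydrocarbon receptor gene, which had 138 RPKM in spleen and 259 in LI, a ratio of 0.91 (0.71 to 1.11). Gm16201 (1.05, 0.15 to 1.94) overlaps Adam8, a surface protease gene, with 41.0 and 133 RPKM, a ratio of 1.69 (1.25 to 2.12). At 5 of the 6 genes past 2-fold in LI with at least 60 RPKM the coding neighbour had a negative ratio: Gm10874, 2210408F21Rik, Ptprv, Gm14005 and A330023F24Rik. In the sixth, Gm35363, the neighbour Pde2a was at 0.28. Negative ratios are common: all coding genes with at least 20 RPKM had a median of 0.01 (interquartile range -0.19 to 0.23). The neighbours of Gm10874, 2210408F21Rik and A330023F24Rik lay 53.2, 61.3 and 59.5 kb away. The intervals of Zfp157 (-0.56 to 0.07) and of Cr1l, the neighbour of A330023F24Rik (-0.41 to 0.02), span 0. Gm2682, Dleu2 and Gm39323, all past 2-fold in spleen, had neighbours at 0.16, 0.43 and 0.18, while those of A330040F15Rik and Gm31718 were at -0.37 and -0.29. Of the list of intestinal or effector T cell genes, Ahr was the only one to be the nearest coding gene of a member. Of the splenic or resting list, 2 tested members had such a neighbour. These were Gm29114 at Ikzf2 (-0.65, -1.63 to 0.32) and Pvt1 at Myc (-0.15, -0.34 to 0.05). Both intervals span 0, and the genes are too few to compare the lists.

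**Figure D5:**
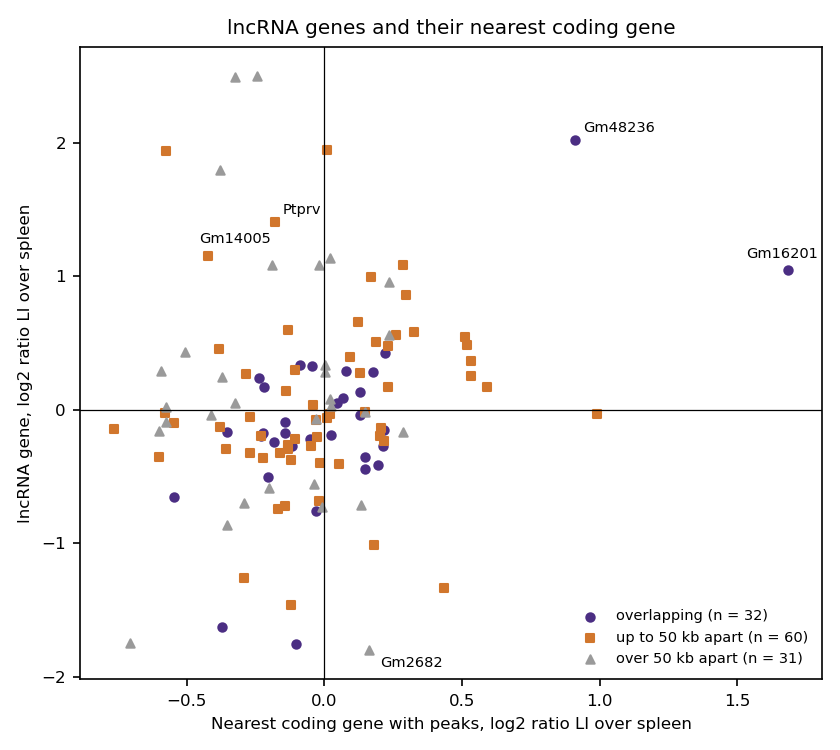
log2 ratio of each of the 123 lncRNA genes (y) against that of its nearest coding gene with peaks (x), by the distance between the gene bodies. Gm48236 and Gm16201 are high on both axes, while Gm14005 and Ptprv are high on y and negative on x and Gm2682 is low on y and positive on x.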

How the data were processed

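H3K36me3 ChIP-seq libraries (75-nt single-end reads) were made from pooled spleen and LI Tregs. The deposited table gives, for each peak, mean coverage in RPKM, which the authors computed after alignment to mm10 (Bowtie2, named without a version in the submitters' processing notes), calling peaks with MACS2 in each tissue against input, and merging them with bedtools. The values fit coverage in 20-bp bins. Members were peaks selected by midpoint against GENCODE M21, and the members, gene lists and comparisons were chosen with earlier results of these data known. Signal was summed per gene, LI scaled to the spleen total, and ratios taken with a pseudocount of 0.5 RPKM where a gene reached 20 RPKM in the sum of the libraries. Named genes were the 8 with the highest signal, from 60 RPKM upwards, the 8 on each side whose counting interval stayed farthest from 0, and listed genes that passed the filter (32 in all). With 1 library per tissue there was no test. GC content came from GRCm38.p6. The ratio over all autosomal peaks rose from -0.47 in the twentieth with the least GC to 0.29 in that with the most. Calculations used Python with numpy, pandas and pysam. The ratio and interval were run on simulated Poisson reads in coding genes, with 200 bp per read and no shared peaks. That run cannot test the 200 bp assumption, and it covers neither the lncRNA genes nor shared peaks. The depth (about 29.6 M and 38.1 M reads) limits single short peaks most. Of the marker lists, 1 gene is not reported here.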

Additional observations from a re-analysis of the deposited data

How the results depend on the processing

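The median ratio stayed within its own interval (-0.15 to 0.05) under all 13 other settings tried. The correlation with the nearest coding gene (rho 0.21) also stayed within its interval, which is wide (0.03 to 0.37), but was 0.03 at 60 RPKM or more. Both intervals treat genes as independent, although the genes share the libraries and some share peaks or a neighbour. They served only as ranges for comparing settings and test nothing. Of these settings, 2 (without peaks in RefSeq coding genes, and without peaks shared by 2 lncRNA genes) were chosen after seeing the data. The counts of genes past 2-fold, 13 in LI and 8 in spleen, stayed within 1.5 times under median-of-ratios scaling, GC correction, weighting by length and both added settings. With a pseudocount of 5 RPKM, 8 genes were past 2-fold in LI. The counts in LI and spleen were 22 and 21 of 178 genes without a filter, 6 and 5 of 66 genes with at least 60 RPKM, 5 and 3 of 96 genes by the strongest peak, 1 and 1 of 43 genes by peaks of 1 kb or more, 6 and 4 of 60 genes over 50 kb past coding ends, and 8 and 5 of 67 lincRNA genes. These settings test fewer or more genes than the 123. Except at 60 RPKM or more, the share over all genes is not given for them. Whether the excess past 2-fold over all genes holds under them was therefore not tested. Peaks of 1 kb or more had median levels of 13.1 RPKM in spleen and 13.8 in LI. Among 158 recomputed ratios of named genes, 144 stayed within their counting interval, 13 moved out of it (12 with the same sign, the other being 1810026B05Rik) and that of Gm42418 reversed to -0.0072 under GC correction. By its strongest peak alone, Gm14005 had 0.48 and Gm2682 -1.39. No paired analysis was possible because each tissue had 1 library. With that single library per tissue, no value here has a spread between animals.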
